A study of Mus musculus with 15 samples.

Results

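The node and the notochord are the midline organizer tissues of the gastrulating mouse embryo. The node lies at the anterior end of the primitive streak, carries motile cilia whose beating breaks left-right symmetry, and gives rise to the notochord, a rod of mesoderm beneath the neural plate. Both tissues secrete Shh and the BMP antagonists Noggin and Chordin, and the notochord later patterns the neural tube and the somites through Shh.

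Single-cell RNA sequencing libraries were made from 15 whole mouse embryos, 12 control and 3 Mesp1 KO, and node and notochord cells were chosen by their own UMI counts, a UMI being a count of 1 captured RNA molecule. A cell was selected when it had at least 1 UMI of at least 3 of the 8 genes Noto, Foxj1, Shh, Nog, Chrd, T, Nme5 and Tppp3, at least 1 of them being Noto, Shh or Nog. This rule found 1395 of 93701 retained cells (1.49%), of which 1253 were from control and 142 from Mesp1 KO embryos. These 8 genes are therefore only described below, with no test.

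All embryos were on a C57BL/6J background and came from a cross carrying a Cre knock-in at Mesp1, a transcription factor of the earliest cardiac and head mesoderm, the Cre-dependent reporter Rosa26R-Ai14, which marks cells with a history of Mesp1 expression, and the Hipp11 Smarcd3-F6::eGFP transgene, an enhancer reporter of cardiac progenitors. Controls kept at least 1 wild-type Mesp1 allele (Mesp1 Cre/+ or +/+), whereas Mesp1 KO embryos were Mesp1 Cre/Cre. The early stage held 5 controls (E6.0 replicates 1 to 3, late E6.0 and E6.5) and the E6.5 KO, the middle stage 3 controls (early E7.5, E7.0 and late E6.5) and the E7.0 KO, and the late stage 4 controls (late E7.5 replicates 1 and 2, E7.75 replicates 1 and 2) and the late E7.5 KO. With 1 KO embryo per stage, the difference between genotypes within a stage cannot be told apart from the difference between embryos.

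Libraries held between 13058356 and 379177866 UMIs. The late E7.5 KO and E7.75 control replicate 1, both of experiment 5, were shallow, with medians of 2939 and 3155 UMIs per node and notochord cell against 18331 to 47677 in the other embryos. Mesp1 was at 0, 0.0252 and 0.0974 CPM (counts per 1000000 summed UMIs) in the other cells of the E6.5, E7.0 and late E7.5 KO embryos, and between 3.23 and 194 CPM in those of the controls. Of the retained cells, 9788 carried a barcode also present in another library, with at most 451 barcodes shared by a pair of libraries, and 2 node and notochord cells shared a barcode with such a cell of another embryo. A doublet score, which left every cell in place, marked the highest-scoring cells of each embryo. Their number was set in advance at 0.8% of cells per 1000 barcodes, so that larger libraries had a larger marked share. Marked were 340 node and notochord cells (24.4%) and 10.7% of all retained cells. Among them were 119 of the 195 cells of late E7.5 control replicate 2, a library of 23141 barcodes. In this library 4124 of all 22277 retained cells were marked. Selected cells were also marked more often than all cells of their library in the early E7.5 control (31 of 77 against 316 of 5861). The same held in late E7.5 replicate 1 (39 of 170 against 384 of 6768) and E7.75 replicate 2 (94 of 287 against 1526 of 13414). They were marked less often in the late E7.5 KO (4 of 67 against 1327 of 12853) and the E6.5 KO (0 of 40 against 25 of 1693). The cause was not tested.

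The share of node and notochord cells differed several-fold among embryos of the same stage. In early controls it was 1.34% in E6.0 replicate 1, 1.04% in replicate 2, 1.18% in replicate 3, 2.26% in late E6.0 and 3.31% in E6.5, and it was 2.36% in the E6.5 KO, within the control range. The values of E6.0 replicates 2 and 3 rest on 3 of 288 and 3 of 255 cells (95% exact intervals 0.215 to 3.01% and 0.243 to 3.40%). In middle controls it was 2.25% in late E6.5, 3.73% in E7.0 and 1.31% in early E7.5, with 2.09% in the E7.0 KO, again between the controls. In late controls it was 2.51% and 0.875% in the late E7.5 replicates 1 and 2 and 0.658% and 2.14% in the E7.75 replicates 1 and 2, and the late E7.5 KO was below all of them at 0.521% (95% Clopper-Pearson interval 0.404 to 0.662%). Such exact bounds reflect counting error alone. This order rested on how cells were chosen: without marked doublets the late E7.5 KO was at 0.547% and late E7.5 control replicate 2 at 0.419%, and with at least 4 rule genes the KO was at 0.303% and E7.75 control replicate 1 at 0.275%.

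In experiment 8, the E6.5 KO at 2.36% stood beside controls at 1.18% (E6.0 replicate 3) and 2.26% (late E6.0). Averaged over stages, the share was 0.276 percentage points lower in KO than in control embryos, which an exact permutation test of genotype within stages did not separate from the spread between embryos (two-sided p = 0.625; the smallest p this design allows is 0.00833). The difference was -0.0478 points without marked doublets and -0.0839 points with at least 4 rule genes, and it turned to 0.114 points with a Foxa2 UMI and to 0.0992 points without the late stage. Within experiment 5, where both libraries were shallow, the late E7.5 KO was at 0.521% and E7.75 control replicate 1 at 0.658%. Because a deeper cell passes the rule more easily, cells were also thinned to 2000 UMIs, leaving out those with fewer (1.89% to 17.2% of the cells of an embryo, 16.5% in the late E7.5 KO). The shares were then 0.266% ± 0.375 (SD, n = 5), 0.853% ± 0.503 (n = 3) and 0.685% ± 0.378 (n = 4) in early, middle and late controls, and the KO embryos were at 0.421%, 0.183% and 0.270% in stage order. E6.0 replicates 2 and 3 then held 0 such cells. At this depth the E7.0 and late E7.5 KO embryos were below every control of their stage, the former with 3 cells of 1637, whereas at 5000 UMIs the E7.0 KO was at 0.747%, above early E7.5 at 0.563%. The mean difference at 2000 UMIs was -0.31 points (exact permutation test, two-sided p = 0.267).

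**Figure D1:**
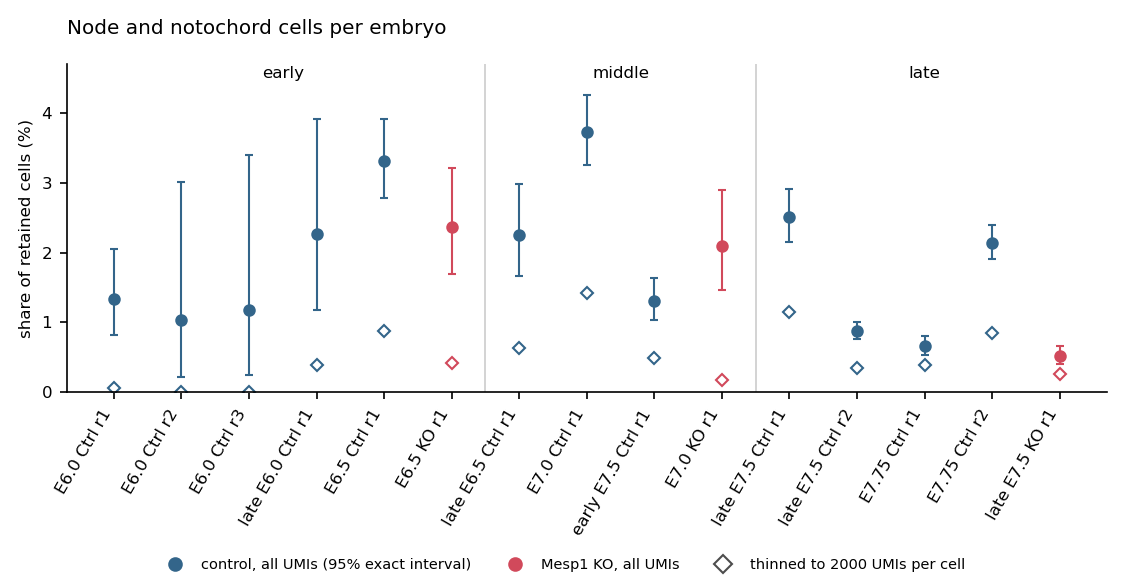
Share of retained cells (%, vertical axis) chosen as node and notochord cells in each of the 15 embryos, in order of stage; filled circles use all UMIs with 95% exact intervals, open diamonds use cells thinned to 2000 UMIs, and Mesp1 KO embryos are red. Shares at full depth run from 0.521% in the late E7.5 KO to 3.73% in the E7.0 control.

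Cells of tissues that should lack these genes gave the background of the rule. Of 2333 cells with at least 3 of 6 extra-embryonic ectoderm markers 5 passed (0.214%, exact interval 0.0696 to 0.499%; median 30902 UMIs), and of 2990 cells with globin and erythroid markers 5 passed (0.167%, 0.0543 to 0.39%; median 19738 UMIs). The corresponding share over all cells was 1.49% at a median of 9739 UMIs. The share of 0.521% in the late E7.5 KO lay above the late-stage values of 0.412% in extra-embryonic ectoderm marker cells (exact interval 0.112 to 1.05%) and 0.148% in blood marker cells, but inside the interval of the first. These late marker cells had medians of 28602 and 17267 UMIs, against 3834 in the other cells of this KO. The KO itself held 0 extra-embryonic ectoderm marker cells. As deeper cells pass the rule more easily, these values do not give the background at the depth of the KO.

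The selected cells were not uniform, as the number of rule genes per cell showed. Exactly 3 rule genes were found in 496 cells and all 8 in 115. Among control cells just inside the threshold, with 3 rule genes, 39.0% had a UMI of Foxa2, a forkhead factor needed to form the node, 12.2% of the ciliary gene Pifo and 52.6% of the caudal gene Cdx2. Just outside it, in the 1439 control cells with 2 rule genes including Noto, Shh or Nog, these shares were 17.2%, 2.78% and 66.2%. In the 115 control cells with all 8 genes, they were 85.2%, 100% and 84.3%, at a lower median depth (18193 UMIs against 25227 with 3 genes).

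A group of 130 cells carried the name against its markers. These cells had no UMI of Noto, Shh, Foxj1 or Chrd and were chosen through Nog, T, Nme5 and Tppp3, and only 7 of them had a Foxa2 UMI. Of the 128 in controls, 88.3% had a UMI of Cdx2 and 52.3% of Tbx6, genes of the caudal streak and presomitic mesoderm. In the control cells with all 8 rule genes these shares were 84.3% and 30.4%, so that Cdx2 does not tell them apart. Of all 1395 cells, 592 had no Foxa2 UMI.

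Noto, a homeobox gene of the node and early notochord, had the largest share of its UMIs in the selected cells among the 8 genes. The rule asks for Noto, Shh or Nog but not for T, so such shares depend on the choice of cells and do not measure restriction to a tissue. In the 10 control embryos with at least 10 selected cells, 51.02% to 100% of them had a Noto UMI (median 65.6%). Of other cells 0.0947% to 0.817% had one, beside 0.0259% to 1.52% for Shh. In these controls 83.6% to 98.7% of all Noto UMIs of an embryo were in the selected cells, and in the late E7.5 KO 61.3%. T, the brachyury gene of streak and notochord, was found in 65% to 96.5% of the selected cells but also in 7.72% to 39.1% of the others, so that at most 27.8% of its UMIs were in the selected cells. The gene lies at chr17:8434423-8442496 and Noto at chr6:85423886-85428877 in mm10.

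Shh, the notochord's secreted morphogen (chr5:28456815-28467256), marked late embryos. In late controls it was found in 53.5% and 63.6% of the cells of late E7.5 replicates 1 and 2 and in 93.9% and 68.3% of those of E7.75 replicates 1 and 2. In middle controls the shares were 8.33%, 15.4% and 29.9% (late E6.5, E7.0, early E7.5), and in early controls 0%, 8.33% and 8.33% (E6.0 replicate 1, late E6.0, E6.5), so that late and earlier controls did not overlap. No Shh UMI was found in 40 cells of the E6.5 KO (exact interval up to 8.81% of cells with a UMI) or in 35 cells of the E7.0 KO (up to 10.0%), which does not limit the share of cells expressing the gene. In the late E7.5 KO it was found in 28.4% (exact interval 18.0 to 40.7%), at a median of 2939 UMIs per cell. Its level there was 118 CPM, between late E7.5 control replicate 1 at 108 CPM and replicate 2 at 155 CPM, whereas E7.75 controls replicate 1, of like depth and experiment but older, and replicate 2 were at 863 and 267 CPM. The late E7.5 KO was thus below all late controls in share but not in level. As Shh is a rule gene, its level here depends on how cells were chosen. The rule asks for the same number of genes in a shallow cell as in a deep one, and each UMI of a shallow cell weighs more in CPM. Levels of rule genes are therefore not comparable between shallow and deep embryos.

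The BMP antagonist genes Nog and Chrd differed in how their shares ran across stages. Nog was present in 59.2% to 82.1% of late control cells, 18.8% to 84.4% of middle and 8.33% to 55.0% of early ones, and in 15%, 11.4% and 20.9% of the cells of the E6.5, E7.0 and late E7.5 KO. The values of the E7.0 and late E7.5 KO were below every control of their stage, also by level (4.96 CPM against 18.5 to 149 CPM, and 66.1 CPM against 199 to 252 CPM). Chrd was present in 65% to 91.7% of early and 10.2% to 59.4% of late control cells. It was in 75%, 68.6% and 25.4% of the KO cells in stage order, within the control range of each stage. By level the shallow late E7.5 KO was at 89.7 CPM for Chrd, above the late controls at 27.4 to 69.0 CPM. The levels of both genes in this KO carry the limit of depth and choice given for Shh. As Nog is 1 of the required genes, its shares and levels in every embryo, the E7.0 KO included, depend on how cells were chosen. Cells without a UMI of Noto, Shh, Foxj1 or Chrd, which met the rule through Nog, were 29 of 333 in middle controls and 0 of 35 in the E7.0 KO.

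The required genes through which cells met the rule were also counted by stage. Noto was the only gene among Noto, Shh and Nog in 53.5%, 35.1% and 7.33% of the control cells of the early, middle and late stages and in 85%, 88.6% and 55.2% of the KO cells. Noto and Shh were found together in 5.88%, 15.6% and 42.1% of the control cells and in 0%, 0% and 11.9% of the KO cells. These shares pool the cells of a stage, and each KO value comes from 1 embryo. Those of the late E7.5 KO come from cells with a median of 2939 UMIs, against 3155 to 21330 in the 4 late controls.

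Foxj1, which switches on the motile cilia genes, and the axonemal and tubulin genes Nme5 and Tppp3 were the ciliary members of the rule. Foxj1 was found in 75% to 100% of early control cells, 49.4% to 88.0% of middle and 17.3% to 71.8% of late ones, and in 85.0%, 82.9% and 76.1% of the KO cells, the last of these above all late controls. Nme5 ranged from 10.0% to 83.3% and Tppp3 from 0% to 50% over the 10 controls, with both of the lowest values in E6.0 replicate 1.

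**Figure D2:**
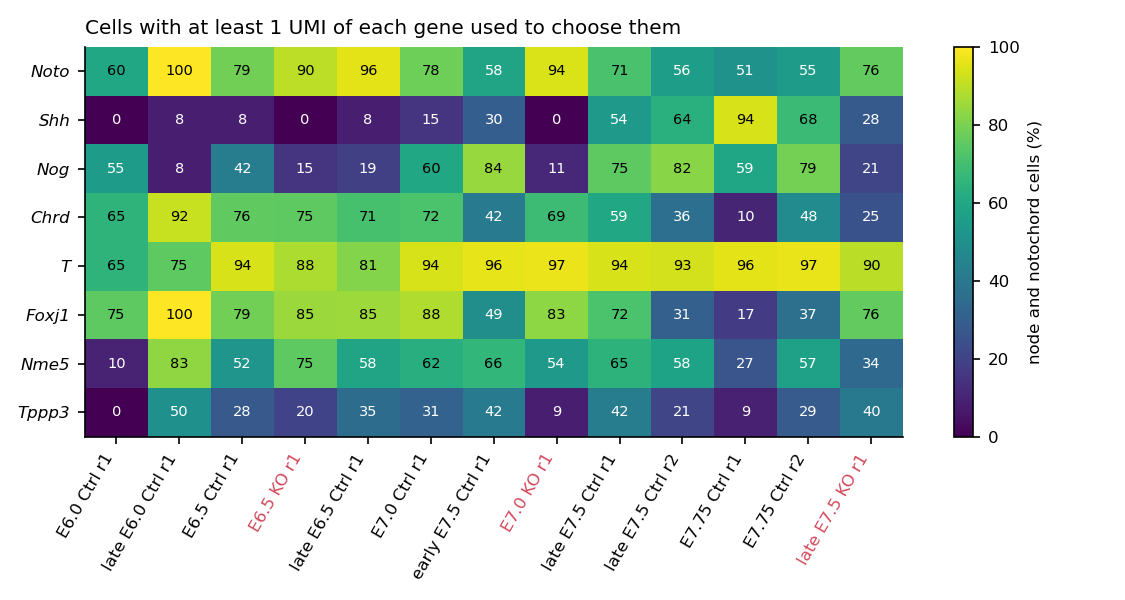
Percentage of node and notochord cells with at least 1 UMI (color and number in each tile) for the 8 genes used to choose them (rows) in the 13 embryos with at least 10 such cells (columns, in order of stage, KO names in red). Shh is at 0 to 30% before the late stage and at 54 to 94% in late controls, and Noto is at 51% or more throughout.

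To describe the genes outside the rule, the summed counts of the selected cells were compared with those of the other cells of the same embryo. The comparison used the 10 controls that had at least 10 selected cells and left out the 8 rule genes. Node and notochord cells had higher levels of node markers, of every tested motile cilia gene, of polarity genes and of keratins, and lower levels of visceral endoderm, mesoderm, blood and endothelial genes. Across all genes, 6645 of 15271 tested (43.5%) passed an adjusted p of 0.05 in edgeR's quasi-likelihood test, 3189 higher (20.9%) and 3456 lower (22.6%). Without between-sample scaling (TMM) the split was 3979 higher to 2500 lower, so that directions close to 0 depend on the scaling. Without the block for the embryo 2945 genes passed.

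All 11 node markers outside the rule were higher, with a median log2 fold change of 2.98, beside -0.03 over all genes tested. Foxa2 was lowest at 38.3, median 84.2 and highest 163 CPM in node and notochord cells and 6.16, 9.39 and 22.5 CPM in other cells (log2 fold change 2.98, SE 0.11, adjusted p = 4.74e-12). The groups did not overlap for this gene in any of the 10 controls. Calca, the calcitonin gene, was at 32.9, 136 and 394 CPM against 3.85, 8.49 and 13.8 CPM (3.88, SE 0.24). Lhx1, a LIM homeobox gene of the early organizer, was higher in 9 of 10 embryos, and its level ran from 667 CPM in E6.0 replicate 1 to 2.74 CPM in E7.75 replicate 1. Sox9, a transcription factor of notochord and cartilage, was higher in 9 of 10 embryos and ran in the other direction, from 4.66 CPM in late E6.0 to 340 CPM in E7.75 replicate 1.

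The genes of left-right patterning in this list were also higher. Pkd1l1, a ciliary membrane protein of the node, was at 3.62 to 24.7 CPM in node and notochord cells and at 0.0532 to 0.395 CPM in other cells (log2 fold change 5.74, SE 0.28, 10 of 10 embryos). Bicc1, an RNA-binding protein, was at 9.32 to 158 CPM against 3.83 to 7.5 CPM (3.46, SE 0.25, 10 of 10). Dand5, a secreted Nodal antagonist, was at 0 in E6.0 replicate 1 and late E6.0, at 3.53 to 10.0 CPM in E6.5, late E6.5 and E7.0, and at 81.6, 22.6, 188, 137 and 149 CPM in the 5 older controls.

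All 45 motile cilia genes were higher, beside 20.9% of all genes tested, with a median log2 fold change of 6.07. The rule holds the ciliary genes Foxj1, Nme5 and Tppp3, so the cells were chosen in part for such genes. The rise describes the chosen cells and is not independent of the rule. Of the 4 with the highest level, Mns1 was at 65.1 to 363 CPM against 48.6 to 119 CPM in other cells (1.05, SE 0.19, 9 of 10 embryos), and Cfap126 at 5.43 to 271 CPM against 1.53 to 3.30 CPM (5.66, SE 0.21, 10 of 10). Pifo was at 12.7 to 234 CPM against 0.711 to 2.15 CPM (6.61, SE 0.30, 10 of 10). Fam183b was at 0 in E6.0 replicate 1 and at 12.8 to 696 CPM in the other 9 embryos, against 0.11 to 1.80 CPM in other cells.

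The 10 genes with the largest rise that were higher in all 10 embryos were Ccdc113, 1700012B09Rik, 1110017D15Rik, Cfap206, Nek5, Lhb, Cfap45, Pifo, Cfap52 and Enkur, with log2 fold changes between 6.52 and 8.97. Most are known ciliary genes: Ccdc113, Cfap206, Cfap45 and Cfap52 encode axonemal proteins, Enkur a calcium-channel-binding protein of the flagellum, and Pifo a protein of the basal body. Lhb, the beta subunit of luteinizing hormone, was at 2.74 to 42.0 CPM against 0 to 0.266 CPM (7.37, SE 0.32).

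Summed over the 45 ciliary genes, the level in node and notochord cells was lowest in E6.0 replicate 1, at 210 CPM against 125 CPM in the other cells of that embryo, with 17 of the 45 genes at 0. In the remaining 9 controls it was between 1174 CPM in E6.5 and 2927 CPM in late E7.5 replicate 1, and in the KO embryos it was 1355, 737 and 4515 CPM in stage order. E6.0 replicate 1 was also the embryo in which the visceral endoderm markers summed higher in the selected cells (3173 CPM) than in the others (2101 CPM). In this youngest tested embryo the ciliary level and the visceral endoderm markers thus went against the name. Node markers were high in the same cells: 18 of the 20 had a Foxa2 UMI, beside 18.9% of the other cells of this embryo. The 11 node markers outside the rule summed to 1436 CPM against 248 CPM in its other cells, the highest level of the 10 controls. The definitive endoderm markers also summed higher, to 2467 CPM against 925 CPM. Which cell type these 20 cells belong to was not tested. Without this embryo, 6889 genes passed the test.

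The promoters of ciliary genes often hold an X-box, the site bound by RFX factors, 2 of which, Rfx2 and Rfx3, were in the ciliary list and higher in node and notochord cells. Windows from 250 bases before to 50 bases after the gene start (RefSeq, GRCm38.p6) were searched on both strands for GTNNCCNNGGNAAC, where N is any base. Of the 45 ciliary genes 39 had a window and 6 held the letters (15.4%), against 403 of 27025 gene symbols (1.49%). The stretches that follow show 4 of the 6 with 30 bases on either side, on the strand of the gene and with the matched letters in capitals (in Cfap206 they match on the opposite strand), since they are among the genes that rose together. The other 2 were Spag6l and Zmynd10.
Pifo, chr3:106001474-106001547, minus strand: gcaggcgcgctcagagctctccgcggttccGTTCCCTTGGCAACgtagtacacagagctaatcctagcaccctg
Cfap206, chr4:34730186-34730259, minus strand: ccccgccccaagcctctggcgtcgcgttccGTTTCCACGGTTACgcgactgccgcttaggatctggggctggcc
Ccdc151, chr9:22002625-22002698, minus strand: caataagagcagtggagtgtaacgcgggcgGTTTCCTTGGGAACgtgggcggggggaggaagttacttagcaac
Tekt4, chr17:25471400-25471473, plus strand: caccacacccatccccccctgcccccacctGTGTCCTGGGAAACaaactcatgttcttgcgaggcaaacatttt
The match began 20 bases before the annotated start in Pifo, 23 in Cfap206, 34 in Ccdc151 and 160 in Tekt4. A match of letters is not evidence of binding, and its absence from a window says nothing of the factor.

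**Figure D3:**
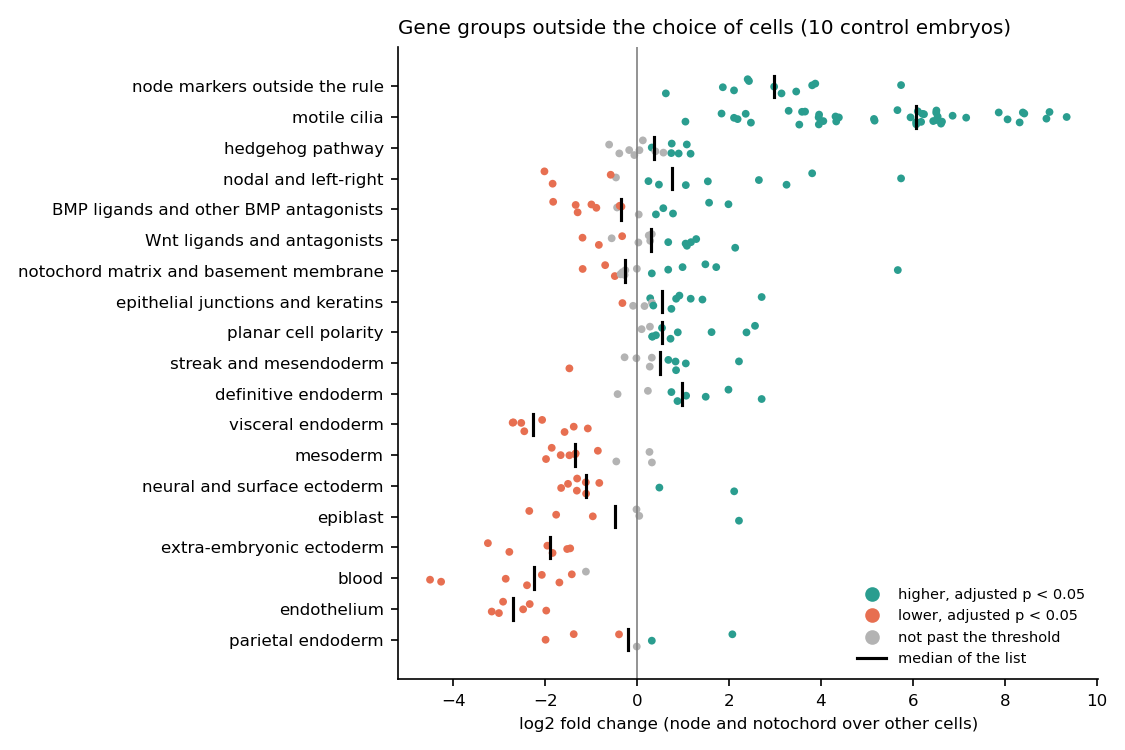
Log2 fold change (horizontal axis) of each tested gene between node and notochord cells and the other cells of the same embryo in 10 controls, grouped by gene list; green and orange points passed an adjusted p of 0.05, and black bars are list medians. The motile cilia genes lie to the right with a median of 6.07, and the visceral endoderm, blood and endothelium lists to the left with medians of -2.26, -2.23 and -2.70.

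Of the 14 tested hedgehog pathway genes 6 were higher and none lower, with a median of 0.36. The 6 called are close to the share called over all genes (43.5%), of which 20.9% were higher and 22.6% lower. Smo, the signal transducer, was at 28.0 to 52.6 CPM against 20.2 to 44.8 CPM and higher in 10 of 10 embryos (0.32, SE 0.06, adjusted p = 0.00074). Its companions among the 4 highest, Gas1, Sufu and Gli3, did not pass (log2 fold changes of -0.17, -0.06 and 0.05). The receptor Ptch1 and the transcription factor Gli1, both also targets of the pathway and named after their values were seen, had log2 fold changes of 0.91 and 1.08 and passed. Disp1 and Cdon, which act in ligand release and reception, also rose (0.74 and 0.75).

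In the lists that follow, counts stand beside the 20.9% of all genes that were higher and the 22.6% that were lower. Of the 12 tested Nodal and left-right genes 8 were higher and 3 lower. Nodal itself was at 23.3 to 75.97 CPM in node and notochord cells in every control, while in other cells it ran from 23.0 CPM in E6.0 replicate 1 to 0.183 CPM in E7.75 replicate 2 (3.25, SE 0.62, 10 of 10 embryos). Cfc1, a Nodal co-receptor, was at 53.6 to 162 CPM against 22.7 to 65.9 CPM (1.54, SE 0.15, 9 of 10). The co-receptor Tdgf1 was higher in 7 of 10 (1.06, SE 0.22) and changed direction when only late embryos were used. Of the Lefty genes, both Nodal targets and antagonists, Lefty1 was higher and Lefty2 lower (2.65 and -2.01), and the transcription factor Foxh1 was lower (-0.57).

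Among 14 genes of BMP ligands, targets and other antagonists, 5 were higher and 7 lower. The antagonist Cer1 was higher in 10 of 10 embryos (10.96 to 429 CPM against 3.87 to 134 CPM), and the ligands Bmp2 and Bmp7 were higher with log2 fold changes of 0.78 and 1.57, although Bmp2 was at -0.01 in late embryos alone. Bmp4, a ligand of extra-embryonic and lateral mesoderm, was lower in 10 of 10 (2.33 to 20.9 against 22.7 to 56.0 CPM). The BMP targets Id1 and Id3 were lower (-0.88 and -0.38). Fst, another antagonist, was higher (0.41, SE 0.14), but not among cells with a Foxa2 UMI (-0.20).

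Of 14 Wnt ligands and antagonists 6 were higher and 3 lower, beside 20.9% and 22.6% of all genes. The Wnt target Sp5 was at 97.8 to 521 CPM against 54.2 to 120 CPM and higher in 10 of 10 embryos (2.14, SE 0.14). The antagonists Dkk1 and Sfrp1 were each higher in 9 of 10 (1.09 and 0.68), and Frzb did not pass (0.29). Sfrp1 was at -0.04 in late embryos alone.

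Of 15 genes of notochord matrix and basement membrane 6 were higher and 3 lower, and the median was -0.25, beside 20.9% higher and 22.6% lower over all genes. Vtn, which encodes the adhesive protein vitronectin, was at 0 in late E6.0 and up to 139 CPM in late E7.5 replicate 2, against 0.187 to 2.70 CPM in other cells (5.67, SE 0.26). Lamb1, a laminin chain, was higher (0.32), Fn1, fibronectin, was lower (-0.48), and Col4a1 did not pass (-0.27). Of 12 genes of epithelial junctions and keratins 8 were higher and 1, the mesenchymal filament gene Vim, was lower (-0.32). Krt8 and Krt18, the partner keratins of simple epithelia, were higher in 10 of 10 embryos (1.42 and 0.92), and Epcam in 9 of 10 (0.29). Of 11 planar cell polarity genes, which orient the posterior tilt of node cilia, 9 were higher and none lower. Among these were Ptk7, Vangl2, Prickle1 and Daam1 at 0.33, 0.41, 0.89 and 0.33.

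Markers of neighbouring lineages moved in both directions, and their counts stand beside 20.9% of all genes higher and 22.6% lower. Of 8 definitive endoderm markers 6 were higher, Trh in 10 of 10 embryos (1.49), Krt19 in 10 of 10 (2.71) and Cer1 as above, while Spink1 did not pass (-0.42). The 8 markers summed to 880 to 2811 CPM in node and notochord cells and 525.6 to 3501 CPM in others. Of 10 streak and mesendoderm genes 5 were higher, including Fgf5 and Fgf8 (2.22 and 0.68), and Mesp1 was lower (-1.47). How far cells of these lineages enter the selected cells was not tested.

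All 8 visceral endoderm, 6 extra-embryonic ectoderm and 6 endothelial markers were lower, as were 7 of 8 blood and 7 of 10 mesoderm markers. The endothelial markers summed to 3.53 to 17.9 CPM against 35.8 to 87.2 CPM in other cells, and the extra-embryonic ectoderm markers to 0 to 40.8 against 7.52 to 163 CPM. Blood markers reached 1131 CPM in the cells of late E7.5 replicate 2, where the other cells were at 6874 CPM and most selected cells were marked as doublets. Leaving out all marked cells, 5744 genes passed. Genes with the largest falls that were lower in all 10 embryos included Apoc2, Elf5, Tnnt2, Myl4, Slc2a2, Creb3l3, Lgals2, Aqp3 and Kdr, between -3.00 and -3.59. Tnnt2 and Myl4 encode muscle proteins of the heart, Kdr a receptor of vascular progenitors, Elf5 a factor of extra-embryonic ectoderm and Apoc2 an apolipoprotein. Of 9 neural and surface ectoderm genes 7 were lower, including Sox2 (-0.82) and Hesx1 (-1.11), and the anterior genes Six3 and Otx2 were higher (2.11 and 0.49). Of 6 epiblast genes 3 were lower and Fgf5 was higher, and of 6 parietal endoderm genes 3 were lower and 2 higher.

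The reporters gave a measure independent of the rule. Ai14 had a lower level in node and notochord cells, at 2.49 to 12.7 CPM against 1.22 to 26.5 CPM in other cells (-1.47, SE 0.26, adjusted p = 0.00024; lower in 8 of 10 embryos). The 2 embryos in which it was not lower, early E7.5 and late E7.5 replicate 1, were embryos recorded as lacking Ai14. In these, 6.49% and 5.88% of node and notochord cells and 2.65% and 2.35% of other cells had an Ai14 UMI.

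As a share of cells, Ai14 was detected in 1.02% to 35% of node and notochord cells of the 10 controls and in 2.35% to 24.5% of other cells, a mean difference of -4.02 percentage points (SD 8.69, n = 10; exact sign-flip permutation test, two-sided p = 0.168). Without E6.0 replicate 1, where 7 of 20 cells were positive, it was -5.97 points (p = 0.0391 in the same exact permutation test). Without the 2 embryos lacking Ai14 it was -5.94 points (n = 8; exact permutation test, p = 0.0938), an alternative chosen after seeing the data. With cells thinned to 2000 UMIs and shallower cells left out, 0.628% of node and notochord cells and 2.86% of other cells were positive on average, lower in 9 of 10 embryos (exact permutation test, two-sided p = 0.00586). These 10 include the 2 embryos lacking Ai14, early E7.5 (0% against 0.203%) and late E7.5 replicate 1 (0.595% against 0.190%). The latter was the embryo that was not lower. The thinned test was not repeated without them. In extra-embryonic ectoderm marker cells, which should lack the reporter, 1.49% to 10.1% were positive at median depths of 24887 to 37052 UMIs in the controls with at least 10 such cells. The lowest values, 1.49% and 1.59%, were from the 2 embryos lacking Ai14, and the others were at 4.65% to 10.1%.

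eGFP was lower in level (-0.55, SE 0.19, adjusted p = 0.0271; 8 of 10 embryos) but not distinguishable in share. It was detected in 2.04% to 25% of node and notochord cells and 2.55% to 14.2% of others, a mean difference of 0.047 points (SD 5.74, n = 10; exact permutation test, two-sided p = 0.984), although it was lower in 7 of 10 embryos and the mean was -1.46 points without late E6.0, where 3 of 12 cells were positive. With cells thinned to 2000 UMIs the mean was -0.435 points. It was detected in 1.49% to 7.30% of extra-embryonic ectoderm marker cells. In the KO embryos, 15%, 5.71% and 4.48% of node and notochord cells had an eGFP UMI and 12.5%, 5.71% and 4.48% an Ai14 UMI, in stage order. In the other cells of these embryos the shares were 12.2%, 10.25% and 3.61% for eGFP and 26.3%, 23.9% and 7.48% for Ai14. Both values of the late E7.5 KO come from 3 of 67 shallow cells.

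To describe how the selected cells differed by age, late and earlier control cells were compared directly. The rule let in different cells by stage: 7.65%, 17.7% and 67.1% of early, middle and late control cells had a Shh UMI. A change within cells and a change in which cells were chosen cannot be told apart here. Of 10999 tested genes 47 passed (0.427%), 41 higher (0.373%) and 6 lower (0.0546%). Marked doublets made up 271 of 750 late, 58 of 333 middle and 6 of 170 early control cells. As the number marked was set by the barcodes of each library, these counts do not measure a change with stage. With the marked cells left out 150 genes passed. Igfbp5, which encodes a secreted IGF-binding protein, was at 19.9, 192, 233 and 132 CPM in late E7.5 replicates 1 and 2 and E7.75 replicates 1 and 2, and at 0 to 13.4 CPM in the 6 earlier controls (log2 fold change 4.83, adjusted p = 0.0219). The groups did not overlap, which was a condition for naming the gene and adds nothing to the test. Within experiment 7 the late values of 19.9 and 132 CPM stood beside 13.4, 6.64, 1.76 and 2.56 CPM in early E7.5, E7.0, late E6.5 and E6.5.

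Col2a1, the cartilage and notochord sheath collagen, was at 20.4, 49.8, 110 and 36.7 CPM in the late embryos in the same order and at 0 to 9.04 CPM before (3.57). Smoc2, a matricellular protein, was at 15.2, 52.9, 24.7 and 42.8 CPM against 0 to 5.02 CPM (3.59), and Kirrel3, a cell adhesion protein, at 10.5, 23.4, 32.9 and 33.3 CPM against 0 to 3.48 CPM (4.21). The transcript 9530036O11Rik (4.30) lies on the opposite strand over the Shh locus, and whether the counting used strand is not given in the sources used here, so its reads cannot be told apart from those of Shh. Of the fixed lists, 1 of 11 node markers (Sox9, 2.89; list median -0.31), 1 of 11 hedgehog genes (Ptch1, 1.62), 1 of 14 matrix genes (Col2a1) and 2 of 12 epithelial genes (Krt8 and Krt19, 1.37 and 2.34) rose. None of the 6 epiblast and 10 streak genes passed (list medians -2.57 and -1.60), and none of the 44 tested cilia genes passed (median 0.37, beside 0.01 over all genes).

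The genes that were lower in late embryos included L1td1, an RNA-binding protein of pluripotent cells, at 8.22 to 15.7 CPM against 24.4 to 114 CPM (-2.25), and Pim2, Gng3 and Epha1 (-1.76, -1.45 and -1.14). The number of calls rested on individual embryos. It was 0 without any one of the E6.5, late E6.0, late E6.5, late E7.5 replicate 2 or E7.75 replicate 2 controls, where 1124, 1616, 1479, 1152 and 1224 genes had an unadjusted p under 0.05 against 1617 with all, and DESeq2 called 373 genes on all embryos. It was 14 without E7.0, 17 without E7.75 replicate 1, 30 without E6.0 replicate 1, 237 without late E7.5 replicate 1 and 419 without early E7.5, and none passed for late against middle embryos alone (1011 at an unadjusted p under 0.05).

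The same question was asked of the contrast with other cells, which removes changes shared by the whole embryo. It does not remove a change in which cells the rule chose. Of 15271 genes 55 passed (0.36%), 43 with a positive and 12 with a negative change of the log2 difference in late embryos. Krt19 was at 268, 402, 428 and 386 CPM in the late node and notochord cells and 14.7 to 30.9 CPM in the other cells of these embryos, whereas before it was at 41.9 to 120.5 CPM against 16.1 to 39.7 CPM (change of the log2 difference 2.55, adjusted p = 0.0032). Clu, the secreted chaperone clusterin, was at 25.1, 111, 181 and 78.0 CPM late against 8.39 to 17.4 CPM in other cells, and at 1.03 to 26.4 CPM against 4.76 to 15.9 CPM before (2.90).

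Plekhb1, Lgals3, Acbd7 and Lrp2 were the other genes with the largest rise in this contrast (3.67, 3.61, 2.87 and 2.74). Lrp2, an endocytic receptor also of visceral endoderm, was below the other cells in all 10 controls, at 5.52 to 17.1 CPM against 20.5 to 46.7 CPM late. Krt8, Krt18 and Cldn6 of the epithelial list also passed (0.90, 0.82 and 0.96). Meox1, a gene of the somite-forming mesoderm, had the largest negative change among the genes named (-2.18). In late embryos it was at 4.06 to 39.0 CPM in the other cells and 4.97 to 24.6 CPM in the selected cells, and before at 0.328 to 7.31 and 0.882 to 18.9 CPM. Without E6.5, E7.75 replicate 1 or E7.75 replicate 2 only 2 genes passed, without late E6.5 5, without late E7.5 replicate 2 9 and without late E6.0 31, and without early E7.5 or late E7.5 replicate 1 there were 307 and 200. None passed for late against middle embryos alone (1164 at an unadjusted p under 0.05).

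**Figure D4:**
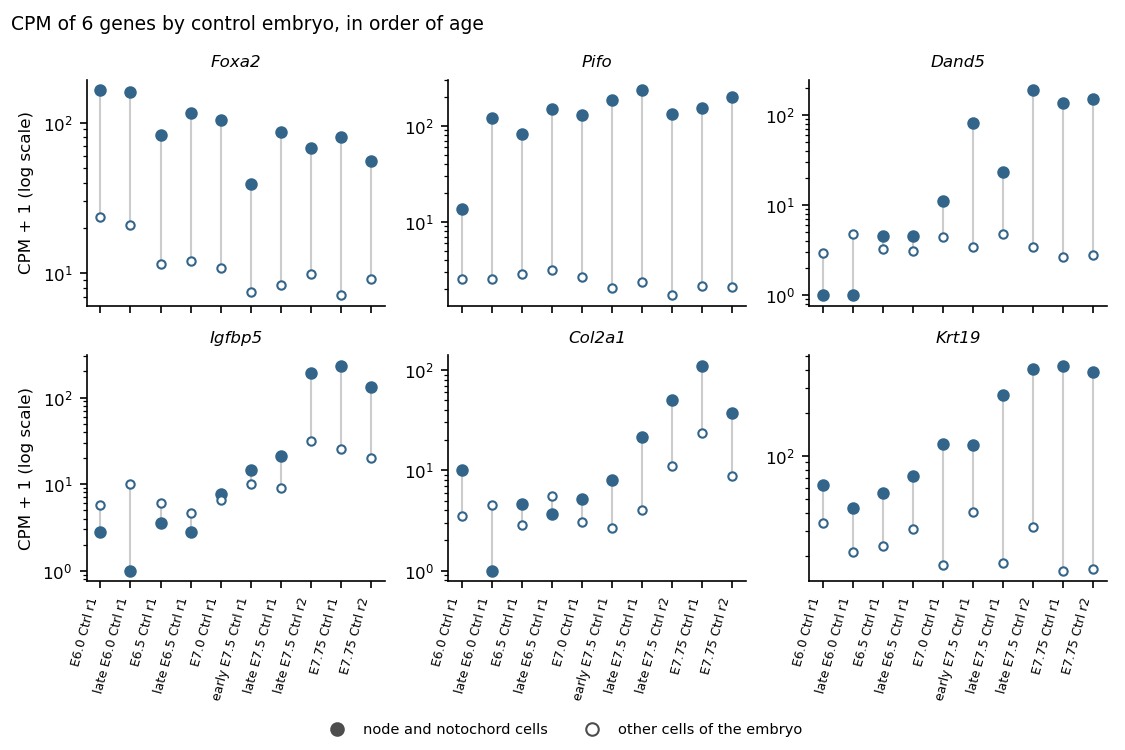
CPM plus 1 (log scale) of 6 genes in node and notochord cells (filled) and in the other cells (open) of each of 10 control embryos in order of age; each vertical line joins the values of an embryo. Foxa2 and Pifo are separated in every embryo, while Igfbp5, Col2a1 and Krt19 are highest in the 4 late embryos.

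Finally, the selected cells of the 3 KO embryos were compared with those of the 10 controls, with stage in the model. Of 9334 tested genes 3 passed (0.0321%), 2 higher and 1 lower, and 1210 had an unadjusted p under 0.05. Ndufa4l2, a mitochondrial protein induced by low oxygen, was at 49.2, 48.4 and 80.3 CPM in the E6.5, E7.0 and late E7.5 KO, against 3.58 to 11.8 CPM in controls (log2 fold change 3.11, SE 0.38, adjusted p = 0.00681). The groups did not overlap, which was a condition for naming the gene and adds nothing to the test. The other cells of the KO embryos were also high, at 29.2, 31.1 and 59.6 CPM against 5.98 to 15.6 CPM.

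Pgm1, a phosphoglucomutase of glycogen metabolism, was at 81.5, 75.6 and 75.6 CPM in KO against 13.7 to 37.3 CPM in control cells (1.58, SE 0.19, adjusted p = 0.00681). Pgp, a phosphoglycolate phosphatase, was at 50.1, 33.5 and 28.3 CPM against 46.6 to 197 CPM (-1.56, SE 0.23, adjusted p = 0.0411), so that its groups overlapped. Within experiment 5 the late E7.5 KO and E7.75 control replicate 1 were at 80.3 and 10.96 CPM for Ndufa4l2, 75.6 and 13.7 CPM for Pgm1 and 28.3 and 46.6 CPM for Pgp. Within experiment 8 the late E6.0 control was at 11.6, 25.6 and 105 CPM for these genes. The middle stage had no control in the experiment of its KO embryo, so that there the experiment and the genotype cannot be told apart.

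None of the 11 tested node markers and none of the 44 tested cilia genes passed between genotypes (medians 0.52 and 0.13, beside -0.03 over all genes). The same held for 8 hedgehog (-0.46), 10 Nodal and left-right (-0.06), 11 BMP (-0.08), 13 Wnt (-0.61), 13 matrix (-0.73), 12 epithelial (-0.58) and 10 polarity genes (-0.56). Foxa2 was at 216, 146 and 161 CPM in the KO cells against 38.3 to 163 CPM in controls (1.06, adjusted p = 0.205). Dand5 was at 3.58, 0 and 0 CPM in the KO cells, and in the late E7.5 KO a count of 0 allows up to 14.2 CPM where the late controls were at 22.6 to 188 CPM (adjusted p = 0.425).

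Leaving out a KO embryo also removed the controls of its stage, which then had no KO to compare. No gene passed in the 9 embryos left without the E6.5 KO or in the 9 left without the E7.0 KO (1234 and 571 at an unadjusted p under 0.05), and 28 did in the 8 left without the late E7.5 KO, 26 of them lower. There were 23 without E7.75 control replicate 1, 15 without late E6.0, 8 without late E7.5 replicate 2, 4 without E6.0 replicate 1 and 2 without any one of E6.5, late E6.5, E7.0, early E7.5, late E7.5 replicate 1 or E7.75 replicate 2. DESeq2 called 221 genes, 58 higher and 163 lower.

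Whether the KO difference was particular to these cells was tested with an interaction between genotype and cell group, a test added after seeing the data. Of 15607 genes 4 passed (0.0256%). Krt18 was at 276, 372 and 350 CPM in KO node and notochord cells and higher, at 452, 564 and 566 CPM, in the other KO cells, whereas in controls it was at 305 to 1491 CPM against 279 to 620 CPM (difference of the log2 changes -1.63, adjusted p = 0.000906). Krt8 had an interaction of the same sign (-1.39), with 391, 404 and 652 CPM in the KO node and notochord cells and 370, 435 and 519 CPM in the other KO cells. Unlike Krt18, it was below the other cells only in the E7.0 KO. Sparc, a basement membrane glycoprotein, was at 96.7, 59.5 and 42.5 CPM in the KO cells and 673, 183 and 186 CPM in the others, against 108 to 334 and 132 to 725 CPM in controls (-1.81). It was lower than in other cells over the controls as well. Pgm1 rose more in node and notochord cells than in the others (1.07).

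In the same KO embryos the definitive endoderm markers summed to 1789, 1564 and 685 CPM in node and notochord cells and to 1816, 2556 and 1935 CPM in the other cells, which also carry keratins. The parietal endoderm markers, of which Sparc is a member, summed to 176, 109 and 94.5 CPM in node and notochord cells and to 972, 265 and 228 CPM in the other cells. The part of the makeup of the other cells in these 4 results was not tested. Fewer cells of a type among them and less RNA per cell cannot be told apart in summed counts.

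**Figure D5:**
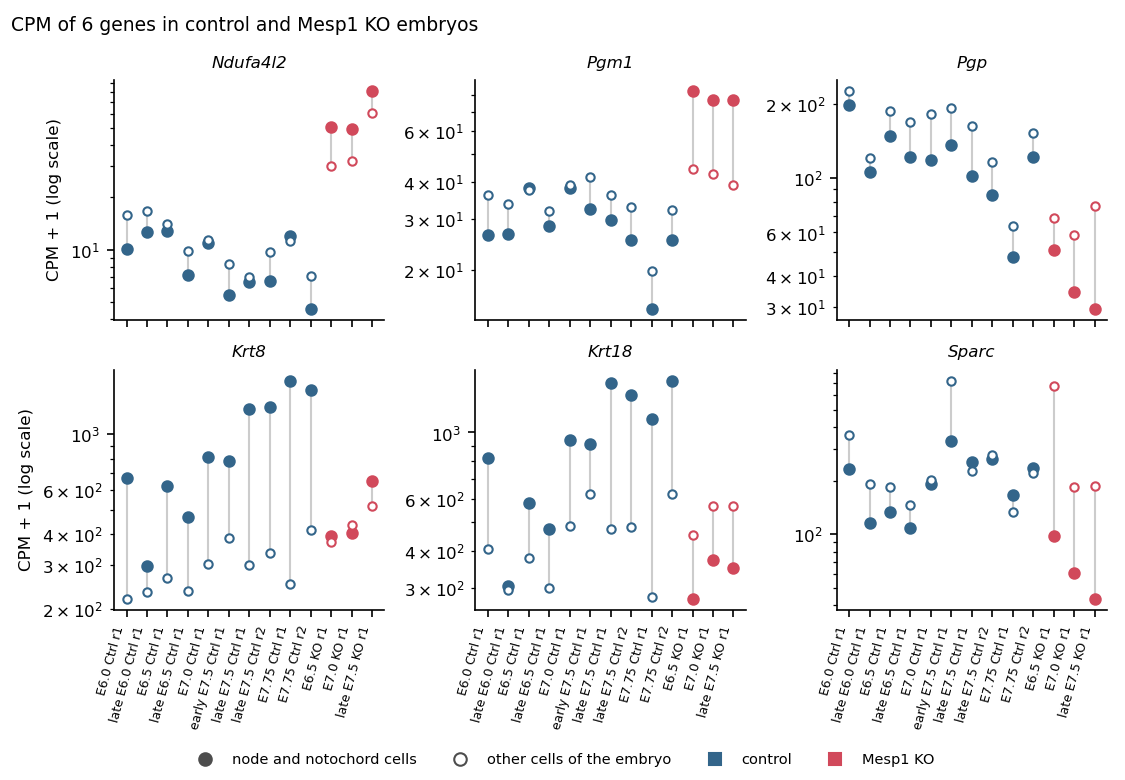
CPM plus 1 (log scale) of 6 genes in node and notochord cells (filled) and other cells (open) of 10 control (blue) and 3 Mesp1 KO embryos (red). Ndufa4l2 and Pgm1 are above all controls in the KO node and notochord cells, and Krt18 and Sparc lie below the other cells of the embryo in all 3 KO embryos. Sparc was also lower than in other cells over the 10 controls.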

How the data were processed

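Whole embryos were profiled with 10x 5′ single-cell RNA sequencing. The authors aligned and counted reads with Cell Ranger 3.0.2 against mm10 with the reporter sequences added, and deposited raw UMI counts per gene and cell. Barcodes with under 10% mitochondrial UMIs, under 50000 UMIs and 200 to 7000 genes were retained (93701 of 99474). The cells and gene lists were chosen with earlier results of these data known. Counts were summed per embryo and cell group where at least 10 selected cells were present (10 control and 3 KO embryos; the summed counts of selected cells ran from 211739 to 6432370 UMIs). They were tested with edgeR 4.0.16 (quasi-likelihood, TMM, filterByExpr, Benjamini-Hochberg; R 4.3.3). The embryo was a block for comparisons within embryos and stage a covariate for genotype. DESeq2 1.42.0 was an alternative. Shares were tested by exact permutation. CPM are of the summed counts. Samples were separate embryos. Doublets were scored against simulated pairs and left out only as an alternative. Named genes had the largest changes with an adjusted p under 0.05, moved the same way in every embryo or did not overlap between groups, and reached 10 CPM in the higher group, with up to 10 per direction within embryos and 5 between groups. List examples were the 4 members with the highest CPM; a gene outside these rules was singled out after its values were seen. List genes were matched by gene ID (14 carry an older symbol in the files). Tests were checked on simulated data. Some genes that meet these rules are not reported here.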

Additional observations from a re-analysis of the deposited data

Results flagged for a closer look

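In E6.0 control replicate 1 the log2 ratio of node and notochord cells to other cells (with 1 CPM added to each) was apart from the other 9 controls by Dixon's test and lower for 6 ciliary genes, at 1.36 for 1110017D15Rik, 2.16 for Cfap206, 1.24 for Cfap45, 2.43 for Pifo, 0.47 for Cfap52 and 1.98 for Enkur. Over 33 such tests, chance sets apart a sample in about 1 in 20.

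The log2 difference between node and notochord cells and other cells changed from earlier to late controls (edgeR interaction, adjusted p under 0.05) by 3.67 for Plekhb1, 3.61 for Lgals3, 2.90 for Clu, 2.87 for Acbd7 and 2.74 for Lrp2. It changed by -2.18 for Meox1, -1.66 for Gm10664, -1.27 for Smtnl2, -0.996 for Tubb3 and -0.81 for Ly6e. The log2 KO effect in node and notochord cells minus that in other cells was -1.81 for Sparc, -1.39 for Krt8, -1.63 for Krt18 and 1.07 for Pgm1 in an interaction test added after seeing the data. The causes were not tested.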

How the results depend on the processing

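Alternatives that require a Foxa2 UMI, that leave out the embryos without Ai14, or that concern the genotype interaction were chosen after seeing the data. The cause of each change given here was not tested. Genes differing from other cells numbered 6645, 2945 without the replicate block and 5744 to 7280 under the other alternatives, with 5771 to 6898 when 1 embryo was left out. Genes differing by genotype numbered 3, against 10 with at least 4 rule genes, 221 with DESeq2, 26 with no filter on low counts, 15 with at least 20 cells per embryo, 28 without experiment 5, 14 with a Foxa2 UMI, and 0 to 28 when 1 embryo was left out, both ends being fits in which the controls of a left-out KO embryo's stage were removed with it (8 or 9 of 13 embryos left). Leaving out experiment 5 and the late E7.5 KO gave the same fit. Genes differing between late and earlier controls numbered 47, against 150 without doublets, 373 with DESeq2, 166 with no filter, 0 for late against middle embryos, and 0 to 419 when 1 embryo was left out. Genes whose difference changed with stage numbered 55, against 128 with DESeq2, 161 with no filter, 0 for late against middle embryos (1164 at an unadjusted p under 0.05), and 2 to 307 when 1 embryo was left out. DESeq2 called 18 genes in the genotype interaction, against 4 with edgeR.

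The share of node and notochord cells (KO minus control) was 0.114 points with a Foxa2 UMI and -0.683 to 0.0992 points when 1 embryo was left out, both ends again without a whole stage, turning positive without the late one. The eGFP difference was -0.435 points at 2000 UMIs, -0.227 with at least 2 UMIs, -0.473 without doublets and -1.49 in late embryos, and -1.46 to 0.542 when 1 embryo was left out, negative without late E6.0, early E7.5 (-0.624) or E7.75 replicate 2 (-0.117). The Ai14 difference was -2.23 points at 2000 UMIs, -6.03 with at least 2 UMIs, and -5.97 to -2.90 when 1 embryo was left out. Of 113 named gene results recomputed 2207 times, 1896 kept direction and side of the threshold, 307 kept direction only (116 of 231 for late against earlier, 91 of 210 for the change with stage, 14 of 66 for genotype and 86 of 1700 within embryos), and 4 turned: Fst with a Foxa2 UMI (-0.20), and Bmp2 (-0.00535), Sfrp1 (-0.042) and Tdgf1 (-0.13) in late embryos. The replicate block here is the embryo, from which both cell groups of a pair come. Counts of 0 limit the shallow late E7.5 KO to under 14.2 CPM.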
